A study of Mus musculus with 11 samples.

Results

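Wnt production in the pubertal mammary epithelium was followed through 9 genes: the ligands Wnt4, Wnt5a, Wnt5b, Wnt6, Wnt7b, Wnt10a and Wnt11, the acyltransferase Porcn and the carrier Wls. They were matched by Entrez identifier to the 27179 genes of the count table, and all 9 were among the 17370 genes that passed the filter on low counts. Porcn was included because its change from ducts to terminal end buds (TEBs) differed between basal and luminal cells of these same libraries. Its values are therefore given as a description, with no test in any comparison, and the tests below concern the other 8 genes.

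Wnt proteins are secreted signals that carry a lipid. Porcn, in the endoplasmic reticulum, attaches palmitoleate to a conserved serine of the ligand, and Wls, a membrane protein, binds the acylated ligand and brings it to the cell surface. Outside the cell the ligands act through Frizzled receptors and Lrp co-receptors to stabilize beta-catenin, or through Ror, Ryk and Ptk7 on cell polarity and movement. In the mammary gland Wnt signals sustain basal stem cells, and luminal Wnt4 acts downstream of progesterone in side branching.

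RNA-seq was performed on cells from TEBs, the swellings at the tips of elongating ducts, and from the ducts behind them. Both structures were micro-dissected from C57BL/6 female mice aged 5 weeks that carried an E-cadherin-GFP reporter, with at least 2 mice pooled for each replicate. Lin- CD29+CD24+ cells were sorted into basal cells with low GFP and luminal cells with high GFP, which gave 3 basal duct, 3 basal TEB, 2 luminal duct and 3 luminal TEB libraries. All groups shared strain, age and reporter, and no group was treated. The luminal duct group rests on replicates 1 and 3 because the study discarded a luminal duct sample, and pools of mice do not show the spread between animals.

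The libraries held from 27989137 to 49221436 counts. Levels are given as CPM, counts scaled to library size after TMM, or as RPKM, which further divides CPM by the exonic length of the gene in kilobases. Genes of the mitochondrial chromosome took 37.5% of counts in basal TEB 1, 28.5% in luminal duct 3, 17.8% in basal TEB 3 and between 4.34% and 10.9% in the other libraries. The labels held against defining markers: the summed CPM of Krt5, Krt14, Trp63 and Acta2 was 3960 to 11891 in basal and 8.65 to 142 in luminal libraries, and that of Krt8, Krt18, Krt19 and Epcam was 439 to 694 in basal and 10774 to 16358 in luminal libraries. The basal markers were lower in TEBs than in ducts with no overlap, at 3960 to 6054 against 9887 to 11891 CPM in basal cells (Krt5 and Krt14 called lower by edgeR) and at 8.65 to 16.7 against 60.0 to 142 CPM in luminal cells (Krt5, Krt14 and Acta2 called lower). The luminal markers in basal cells were at 439 to 456 CPM in TEBs against 604 to 694 CPM in ducts (Krt18 called lower), while in luminal cells the structures overlapped and 0 of 4 were called, with Krt18 at an unadjusted p below 0.05. The part of these shifts in the changes of the ligands from duct to TEB was not tested. Summed fibroblast markers (Col1a1, Col1a2, Col3a1, Dcn, Lum and Pdgfra) reached 430 to 840 CPM in basal duct, 226 to 406 in basal TEB, 6.03 and 250 in luminal duct and 11.7 to 53.1 in luminal TEB. Lum was at 0 in basal duct 1 and basal TEB 1. Summed endothelial markers (Pecam1, Cdh5 and Kdr) were highest in basal duct 2, at 146 CPM, and immune (Ptprc, Cd68 and Adgre1) and adipocyte markers (Adipoq, Plin1 and Fabp4) were at most 68.5 and 179 CPM, both also in basal duct 2, with Adipoq at 0 in all duct and all luminal libraries. In sorted bulk samples fewer cells of a type and less RNA per cell cannot be told apart.

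The 7 ligands share the stretch that Porcn modifies. It is printed here because it is the point at which Porcn, Wls and the ligands meet. Each line gives 24 bases of coding sequence from the GENCODE M21 transcripts of the mm10 genome, 5′ to 3′ on the strand of the gene, with the codon of the acylated serine in capitals.

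Wnt4: tgtcacggggtgTCGggctcctgc
Wnt7b: tgtcacggtgtgTCAggctcctgt
Wnt5a: tgtcatggagtgTCTggctcctgt
Wnt5b: tgtcacggagtcTCCgggtcctgc
Wnt6: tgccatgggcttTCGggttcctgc
Wnt10a: tgccacggcaccTCAggcagctgc
Wnt11: tgccatggggtgTCTggctcctgc

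The serine codon was spelled TCG in Wnt4 and Wnt6, TCT in Wnt5a and Wnt11, TCA in Wnt7b and Wnt10a, and TCC in Wnt5b. It was codon 212 of 351 in Wnt4 (chr4:137296345-137296368), 206 of 349 in Wnt7b (chr15:85537812-85537835, minus strand), 244 of 380 in Wnt5a (chr14:28522515-28522538) and 223 of 359 in Wnt5b (chr6:119433800-119433823, minus strand). In Wnt6 it was codon 227 of 364 (chr1:74784172-74784195), in Wnt10a codon 268 of 417 (chr1:74803156-74803179) and in Wnt11 codon 215 of 354 (chr7:98850260-98850283). The stretch lay in the last exon of each gene except Wnt11, where it lay in exon 6 of 7. Any pair of ligands shared between 14 and 21 of the 24 bases, and the fewest were shared by Wnt5a and Wnt10a. Wnt6 and Wnt10a neighbour each other on chromosome 1, at 74754342 to 74785322 and at 74792019 to 74804176.

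Basal and luminal cells differed in several ligands, while Wnt5a and Wnt5b were called between them in neither structure. Of the 8 genes tested, Wls, Wnt6, Wnt10a and Wnt11 were higher in basal cells of ducts and Wnt4 and Wnt7b were higher in luminal cells of ducts by edgeR's quasi-likelihood test at a Benjamini-Hochberg adjusted p (FDR) below 0.05. That is 6 of 8, where 22.3% of all genes tested were called. In TEBs Wnt6 and Wnt10a were higher in basal cells and Wnt4 and Wnt7b in luminal cells, 4 of 8 where 25.1% of all genes were called. The CPM of the cell types did not overlap for 6 of the 8 genes in ducts, against 46.0% of all genes, and for 6 of 8 in TEBs, against 49.8%. The median log2 difference, basal minus luminal and with Wnt10a at its lower bound, was 0.57 in ducts and 0.15 in TEBs, compared with 0.08 and 0.04 over all genes.

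Wnt4, the ligand made by hormone-responsive luminal cells, was abundant in every luminal library. It stood at 124 and 148 CPM in luminal duct, and at 84.3, 63.3 and 79.5 CPM in luminal TEB. Basal duct libraries held 1.24, 0.474 and 1.82 CPM, and basal TEB libraries 2.89, 2.02 and 1.40 CPM. The cell types thus stood far apart in both structures, and the ligand was 115-fold lower in basal than in luminal cells of ducts and 36.0-fold lower in TEBs by group means. The log2 differences were -6.84 (SE 0.48, FDR = 2.75e-06) in ducts and -5.20 (SE 0.44, FDR = 4.30e-06) in TEBs by edgeR's quasi-likelihood test. Basal Wnt4 amounted to 0.867% of the luminal level in ducts and 2.78% in TEBs, and the 4 luminal markers ran from 1.41% (Krt19) over 2.06% (Krt18) and 7.10% (Krt8) to 19.1% (Epcam) in ducts. In TEBs they were at 0.516%, 0.854%, 4.20% and 21.9% in the same order, so that Wnt4 lay below all of them in ducts and between Krt18 and Krt8 in TEBs. The part of luminal RNA in this basal remainder was not tested.

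Luminal TEB libraries all lay below luminal duct libraries in Wnt4, with means of 75.7 ± 11 (SD, n = 3) and 136 ± 17.0 CPM (SD, n = 2). The log2 change of -0.84 (SE 0.39) did not pass the test (edgeR, FDR = 0.309), and passed with limma voom (FDR = 0.0346). In basal cells the log2 change of 0.81 (SE 0.40) did not pass either (FDR = 0.384), and the groups overlapped.

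Wnt7b, a ligand that signals with the co-receptors Reck and Adgra2, was the other luminal gene. Luminal duct libraries held 51.3 and 50.1 CPM and luminal TEB libraries 85.6, 87.0 and 94.5 CPM. Basal duct libraries held 2.09, 1.79 and 0.436 CPM, and basal TEB libraries 0, 0.8 and 0.364 CPM, the last from 0, 38 and 13 counts. Each luminal library was thus well above each basal library. The log2 difference between basal and luminal cells was -5.13 (SE 0.70, FDR = 0.000231) in ducts and -7.64 (SE 0.77, FDR = 1.82e-05) in TEBs (edgeR). From duct to TEB, Wnt7b was higher in all luminal libraries with a log2 change of 0.81 (SE 0.64) that did not pass the test (FDR = 0.541). The span of the gene, introns included, overlaps that of AU022754, which held 564 counts over the 11 libraries. Whether their exons overlap was not examined. The library kit does not mark strand, so that reads in a shared exon could not be assigned to either gene.

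The basal ligands were Wnt6, Wnt10a and Wnt11. Wnt6, which can act through beta-catenin and is a neighbour of Wnt10a in the genome, stood at 49.0, 39.9 and 68.8 CPM in basal duct and at 123, 96.4 and 103 CPM in basal TEB. In luminal cells it was near the limit of detection, with 9 and 2 counts in duct and 23, 15 and 14 counts in TEB libraries, or 0.0822 to 0.516 CPM. All basal libraries were above all luminal ones, by 366-fold in ducts and 302-fold in TEBs by group means. The log2 differences were 8.37 (SE 0.50, FDR = 1.11e-06) in ducts and 8.24 (SE 0.39, FDR = 1.50e-07) in TEBs by edgeR's quasi-likelihood test. Luminal Wnt6 was 0.273% of the basal level in ducts and 0.332% in TEBs, and the 4 basal markers were at 0.840% and 0.907% (Krt5), 0.684% and 0.513% (Krt14), 0.389% and 0.289% (Trp63), and 1.06% and 0.221% (Acta2). Wnt6 thus lay below all of them in ducts and between Trp63 and Krt14 in TEBs. The part of basal RNA in these few luminal counts was not tested.

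Each basal TEB library held more Wnt6 than each basal duct library. The means were 108 ± 13.9 and 52.6 ± 14.8 CPM (SD, n = 3 each), and the log2 change of 1.03 (SE 0.28) missed the threshold (edgeR, FDR = 0.112). It passed with 3 other tools, at an FDR of 0.0214 by the likelihood ratio test, 0.0268 by DESeq2 and 0.0110 by limma voom.

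Wnt10a, a ligand of ectodermal appendages including the mammary bud, was found only in basal libraries. No read was counted in any of the 5 luminal libraries, where the highest limit set by 3 counts was 0.123 CPM in duct and 0.0673 CPM in TEB libraries. The basal duct libraries held 29.4, 13.4 and 12 CPM (1472, 509 and 469 counts) and basal TEB libraries 0.577, 6.67 and 5.85 CPM (10, 317 and 209 counts). Mean basal levels were thus at least 148-fold higher in ducts and at least 65.0-fold higher in TEBs than these limits, which cover counting error only. The difference passed edgeR's quasi-likelihood test in ducts (FDR = 0.00208) and in TEBs (FDR = 0.00102). Within basal cells, Wnt10a was lower in every TEB library than in any duct library, lowest in basal TEB 1. The log2 change of -2.06 (SE 0.93) did not pass the test (FDR = 0.356), and moved to -1.54 without that library.

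Wnt11, a ligand of polarized cell movement and of epithelial branching, was basal in ducts but not clearly so in TEBs. Its level was 34.4, 41.3 and 17.2 CPM in basal duct libraries, and 1.41 and 2.26 CPM in luminal duct libraries. The log2 difference in ducts was 4.08 (SE 0.66, FDR = 0.000797) by edgeR. In TEBs, basal libraries held 8.66, 8.08 and 4.51 CPM and luminal libraries 3.34, 6.06 and 2.56 CPM. These groups overlapped, with a log2 difference of 0.83 (SE 0.49, FDR = 0.255).

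Wnt11 was lower in basal TEBs than in basal ducts and higher in luminal TEBs than in luminal ducts, with no overlap in either. Such opposite shifts without overlap were found in 3.60% of all genes. The log2 changes were -2.13 (SE 0.51, FDR = 0.0753) in basal and 1.12 (SE 0.57, FDR = 0.347) in luminal cells, and neither passed edgeR's quasi-likelihood test. The difference of these changes was -3.25 (SE 0.77, FDR = 0.1), which did not pass either. With DESeq2 the basal change passed at an FDR of 0.00126 and the difference at 0.00297, and with the likelihood ratio test at 0.00542 and 0.00685. The basal change also passed with limma voom (FDR = 0.0455), where the difference did not (FDR = 0.276).

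**Figure D1:**
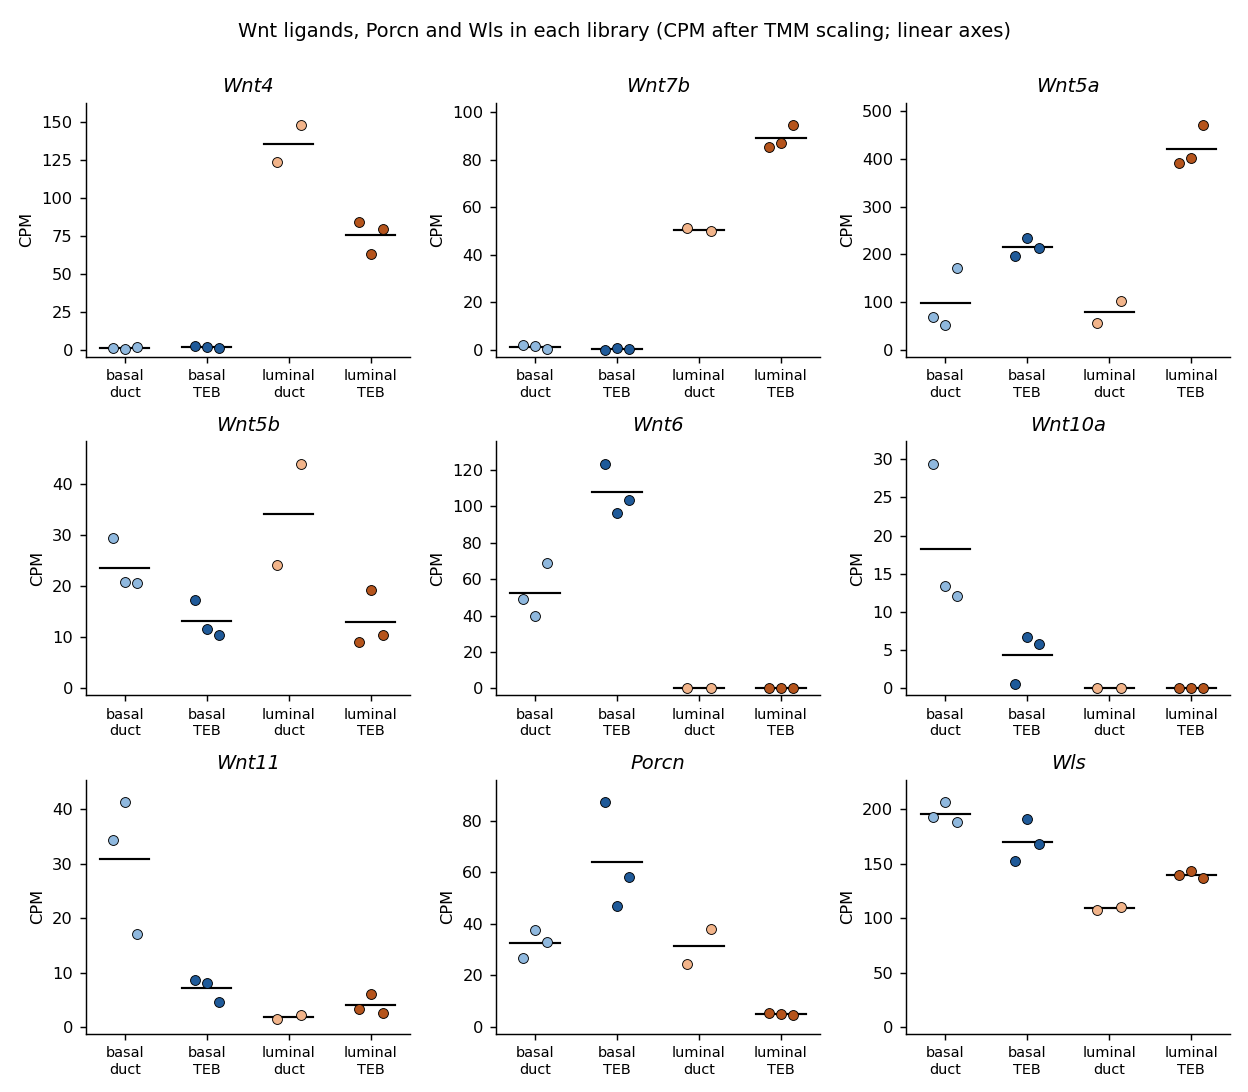
Level of each gene in each library, in CPM after TMM scaling on a linear axis, by group. Points are libraries and bars are group means. Wnt4 and Wnt7b sit near 0 in all basal libraries, Wnt6 and Wnt10a near or at 0 in all luminal libraries, and Porcn is between 4.76 and 5.29 CPM in luminal TEB against 24.5 to 87.1 CPM elsewhere.

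Promoters of 5 of the 9 genes were found in the RefSeq table of the GRCm38.p6 build (Wls, Wnt4, Wnt5b, Wnt6 and Wnt11). The 250 bases before a listed start are printed for the luminal ligand Wnt4 and the basal ligands Wnt6 and Wnt11. These differed between cell types and can be read side by side. Capitals mark GGGCGG and TATAAA on either strand, so that GGGCGG on the opposite strand reads CCGCCC.

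Wnt4: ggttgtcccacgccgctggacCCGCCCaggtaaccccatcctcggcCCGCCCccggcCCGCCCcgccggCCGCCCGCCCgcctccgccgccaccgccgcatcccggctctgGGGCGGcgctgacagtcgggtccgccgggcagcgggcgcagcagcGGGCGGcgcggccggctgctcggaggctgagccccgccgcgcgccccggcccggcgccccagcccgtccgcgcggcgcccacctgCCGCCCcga
Wnt6: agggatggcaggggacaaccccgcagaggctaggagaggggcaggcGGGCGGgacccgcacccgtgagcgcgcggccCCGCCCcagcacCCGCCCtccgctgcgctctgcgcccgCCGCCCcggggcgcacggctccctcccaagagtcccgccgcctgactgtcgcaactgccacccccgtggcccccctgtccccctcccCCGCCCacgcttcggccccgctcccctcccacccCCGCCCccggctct
Wnt11: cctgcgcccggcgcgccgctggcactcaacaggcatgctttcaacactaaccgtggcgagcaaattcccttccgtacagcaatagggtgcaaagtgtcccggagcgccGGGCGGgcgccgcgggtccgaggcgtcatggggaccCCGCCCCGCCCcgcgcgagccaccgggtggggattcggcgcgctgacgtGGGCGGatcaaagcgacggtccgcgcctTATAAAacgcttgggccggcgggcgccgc

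The Wnt4 stretch (chr4:137277385-137277634) had a G and C content of 85.2% and 8 copies of GGGCGG. The Wnt6 stretch (chr1:74771642-74771891) had 79.6% and 6 copies, and lies inside the span of the gene. The Wnt11 stretch before the outer listed start (chr7:98834862-98835111) had 70.8%, 4 copies and 1 TATAAA, and runs past the gene's start at 98835084. A stretch before an inner Wnt11 start (chr7:98838595-98838844), not printed, had 56.8%, 0 copies and 0 TATAAA. All 3 printed stretches lie on the plus strand. CCAAT was in none of these windows on either strand. Over the 32851 promoters of the table, the median G and C content was 52.4%, and GGGCGG was found in 32.74%, TATAAA in 12.37% and CCAAT in 33.85%. All 3 printed stretches and the inner Wnt11 stretch were above that median, whichever cell type the ligand was higher in. The matches describe letters, not binding.

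Between ducts and TEBs, fewer genes of the set differed. In luminal cells only Wnt5a passed, 1 of 8 genes where 1.41% of all genes were called by edgeR's quasi-likelihood test. In basal cells 0 of 8 passed where 1.32% of all genes were called, although 5 of 8 had an unadjusted p below 0.05 (Wnt5a, Wnt5b, Wnt6, Wnt7b and Wnt11), against 14.5% of all genes. The likelihood ratio test called 2 of 8 against 4.07% of all genes, DESeq2 called 2 against 5.03% and limma voom 3 against 3.46%. The CPM of TEB and duct libraries did not overlap for 5 of 8 genes in basal cells (Wnt5a and Wnt6 higher in TEBs, Wnt5b, Wnt10a and Wnt11 lower) and for 7 of 8 in luminal cells (Wls, Wnt5a, Wnt6, Wnt7b and Wnt11 higher, Wnt4 and Wnt5b lower). Over all genes these shares were 20.8% and 43.7%. The median log2 change was -0.53 over 8 genes in basal cells and 0.81 over 7 in luminal cells, where Wnt10a has no change to give, against -0.03 and 0.04 over all genes.

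Wnt5a, which acts mainly on polarity and movement and restrains ductal growth downstream of TGF-beta, was the most abundant ligand of TEB luminal cells. Luminal TEB libraries held 391, 403 and 470 CPM, and luminal duct libraries 56.0 and 103 CPM, with no overlap. Wnt5a rose with a log2 change of 2.40 (SE 0.46, FDR = 0.0302) by edgeR's quasi-likelihood test. The call was lost when any library of either luminal group was left out (FDR 0.0591 to 0.113), without basal TEB 3 (FDR = 0.0572), without both basal TEB 1 and luminal duct 3 (FDR = 0.0547) and with library totals alone (FDR = 0.0681), while the log2 change stayed between 2.03 and 2.93 over all alternatives. In basal cells, duct libraries held 68.4, 51.4 and 172 CPM and TEB libraries 197, 234 and 214 CPM. Every basal TEB library was above every basal duct library, with a log2 change of 1.15 (SE 0.38, FDR = 0.201). Without basal duct 3, the highest of its group, that change was 1.84 and passed (FDR = 0.00899), and with limma voom it passed with all libraries (FDR = 0.0358).

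The cell types were not told apart by Wnt5a in ducts, where they overlapped with a log2 difference of 0.29 (SE 0.42, FDR = 0.67). The difference changed sign to -0.41 without basal duct 3 and to -0.086 without luminal duct 1. In TEBs all luminal libraries were above all basal ones, at means of 421 ± 42.8 and 215 ± 18.5 CPM (SD, n = 3 each). The log2 difference of -0.97 (SE 0.38) did not pass (edgeR, FDR = 0.0855), and passed in 7 of 20 alternatives, among them all 3 other tools (FDR = 0.0466 by the likelihood ratio test, 0.0384 by DESeq2 and 0.0200 by limma voom), library totals alone (FDR = 0.0475), and leaving out basal duct 2 (FDR = 0.0465) or basal duct 3 (FDR = 0.0107). Each group is used in more than 1 of the comparisons, which therefore share libraries.

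Fibroblasts can also make Wnt ligands, and their markers are set beside Wnt5a. Summed fibroblast markers were 430, 840 and 491 CPM in basal duct 1, 2 and 3, and lower in each basal TEB library, at 227, 406 and 226 CPM. In luminal cells they were 6.03 and 250 CPM in duct and 11.7, 53.1 and 48.7 CPM in TEB libraries, with overlap. For Wnt5a, each TEB library lay above each duct library in both cell types. Of the 6 markers, 0 were called by edgeR between TEBs and ducts in either cell type, where 0 in basal and 1 in luminal cells (Dcn) had an unadjusted p below 0.05. Between cell types 1 was called, Dcn, higher in basal cells of both structures. Wnt5b, Wnt10a and Wnt11 ran the same way as these markers in basal cells, with each duct library above each TEB library. Within basal ducts Wnt11 was highest in basal duct 2 (41.3 CPM), as the markers were, while Wnt5a was lowest there (51.4 CPM). Wnt5b and Wnt10a were highest in basal duct 1 (both 29.4 CPM). In luminal ducts the markers were higher in luminal duct 3 than in luminal duct 1. So were Wnt5a (103 against 56.0 CPM), Wnt5b (44.0 against 24.2 CPM) and Wnt11 (2.26 against 1.41 CPM). The part of fibroblast RNA in the levels of Wnt5a and these ligands was not tested.

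Wnt5b, the paralogue of Wnt5a, went the other way. Basal duct libraries held 29.4, 20.9 and 20.7 CPM and basal TEB libraries 17.3, 11.7 and 10.5 CPM, while luminal duct libraries held 24.2 and 44.0 CPM and luminal TEB libraries 9.15, 19.4 and 10.5 CPM. TEB libraries were below duct libraries without overlap in both cell types. The log2 changes of -0.85 (SE 0.38, FDR = 0.333) in basal and -1.39 (SE 0.41, FDR = 0.12) in luminal cells did not pass edgeR's quasi-likelihood test. The luminal change passed with DESeq2 (FDR = 0.0264), with the likelihood ratio test (FDR = 0.0419) and without luminal duct 1 (-1.76, FDR = 0.0442). It was -0.90 without luminal duct 3 (FDR = 0.547) and -0.88 without both basal TEB 1 and luminal duct 3, and did not pass with limma voom. Basal and luminal cells overlapped in both structures, with log2 differences of -0.53 (SE 0.41, FDR = 0.393) in ducts and 0.01 (SE 0.38, FDR = 0.988) in TEBs. The span of Wnt5b, introns included, overlaps that of Fbxl14, a gene with 13686 counts over the 11 libraries. Whether their exons overlap was not examined, and reads in a shared exon could not be assigned without strand.

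**Figure D2:**
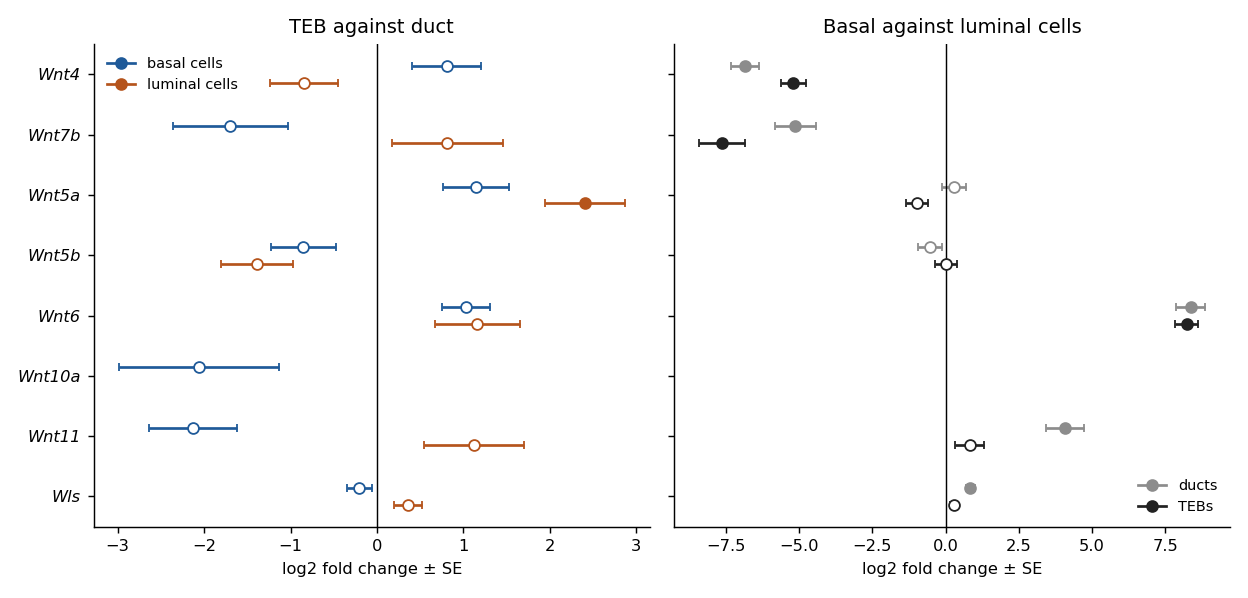
Log2 fold changes with their SE from edgeR's quasi-likelihood test, for TEB against duct in each cell type and for basal against luminal cells in each structure. Filled points passed an FDR of 0.05. Wnt10a is shown only for basal cells, since luminal libraries had no count, and Porcn is left out because it was chosen on its change. Wnt5a in luminal cells is the only filled point for TEB against duct.

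Porcn, the acyltransferase that every ligand here depends on, is described without a test. In ducts, basal libraries held 26.9, 37.5 and 33.1 CPM and luminal libraries 24.5 and 38.0 CPM, so that the cell types overlapped. Basal TEB libraries held 87.1, 47.0 and 58.1 CPM, whereas luminal TEB libraries held 5.29, 5.12 and 4.76 CPM. The luminal TEB libraries were thus below all others, and the basal TEB libraries above all others. On the log2 scale the TEB level was 0.98 above that of ducts in basal cells and -2.62 relative to ducts in luminal cells. The gap between basal and luminal cells was 0.06 in ducts and 3.66 in TEBs. The highest basal TEB value came from basal TEB 1, the library with 37.5% mitochondrial counts, and without it the basal difference was 0.70. Without luminal duct 3 the luminal difference was -2.28.

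The 3 luminal TEB libraries with the least Porcn held the most Wnt5a and Wnt7b. In these libraries the RPKM of Porcn was 2.67 ± 0.144 (SD, n = 3), against 16.5 ± 5.02 in luminal duct (SD, n = 2), 17.1 ± 2.81 in basal duct and 33.8 ± 10.9 in basal TEB (SD, n = 3 each). Wls in the same luminal TEB libraries was at 50.5 ± 1.13 RPKM (SD, n = 3).

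Wls, the carrier of acylated ligands, was high in every library and varied the least of the set. It stood at 193, 206 and 188 CPM in basal duct, 152, 190 and 168 CPM in basal TEB, 107 and 111 CPM in luminal duct and 139, 143 and 137 CPM in luminal TEB. All basal duct libraries lay above both luminal duct libraries, with a log2 difference of 0.84 (SE 0.16, FDR = 0.00253) by edgeR's quasi-likelihood test. In TEBs the basal libraries were again above the luminal ones, with a log2 difference of 0.28 (SE 0.14, FDR = 0.172) that did not pass. TEB against duct gave -0.20 (SE 0.14, FDR = 0.547) in basal and 0.36 (SE 0.16, FDR = 0.288) in luminal cells. With library totals alone, which moved the median of all genes by 0.11 in ducts and by -0.39 in TEBs, the duct difference was 0.96 (FDR = 0.0662) and the TEB difference turned to -0.10.

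The change from duct to TEB was compared between cell types for the same 8 genes. None passed by edgeR's quasi-likelihood test, where 0.443% of all genes were called, while 5 had an unadjusted p below 0.05 (Wls, Wnt4, Wnt5a, Wnt7b and Wnt11), against 14.7% of all genes. Wnt11 passed with the likelihood ratio test and with DESeq2, 1 gene each, where 3.62% and 4.10% of all genes were called. The differences of log2 changes, basal minus luminal, were 1.65 (SE 0.56) for Wnt4, -2.51 (SE 0.93) for Wnt7b, -1.26 (SE 0.57) for Wnt5a, 0.54 (SE 0.56) for Wnt5b, -0.13 (SE 0.52) for Wnt6 and -0.56 (SE 0.21) for Wls. Their median with Wnt11 was -0.56 over 7 genes, against -0.13 over all genes.

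Per length, the make-up of the ligands differed between the groups. The 19 Wnt genes of the mouse summed to 82.8 ± 17.2 RPKM in basal duct, 114 ± 3.63 in basal TEB and 144 ± 10.5 in luminal TEB (SD, n = 3 each), and to 80.8 ± 17.8 in luminal duct (SD, n = 2). Wnt6 made up 30.5% of this sum in basal duct and 45.7% in basal TEB, and Wnt5a 25.5% and 43.3%. Wnt11, Wnt5b and Wnt10a took 14.6%, 12.4% and 11.5% of the sum in basal duct and 2.22%, 4.85% and 1.99% in basal TEB. In luminal cells Wnt4 took the largest share of the sum in ducts, 44.4%, and 13.8% in TEBs. Wnt5a went from 22.0% in luminal duct to 66.9% in luminal TEB, whereas Wnt7b kept 14.6% and 14.0%. These shares are group means and were not tested, and a share can move because another ligand did.

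**Figure D3:**
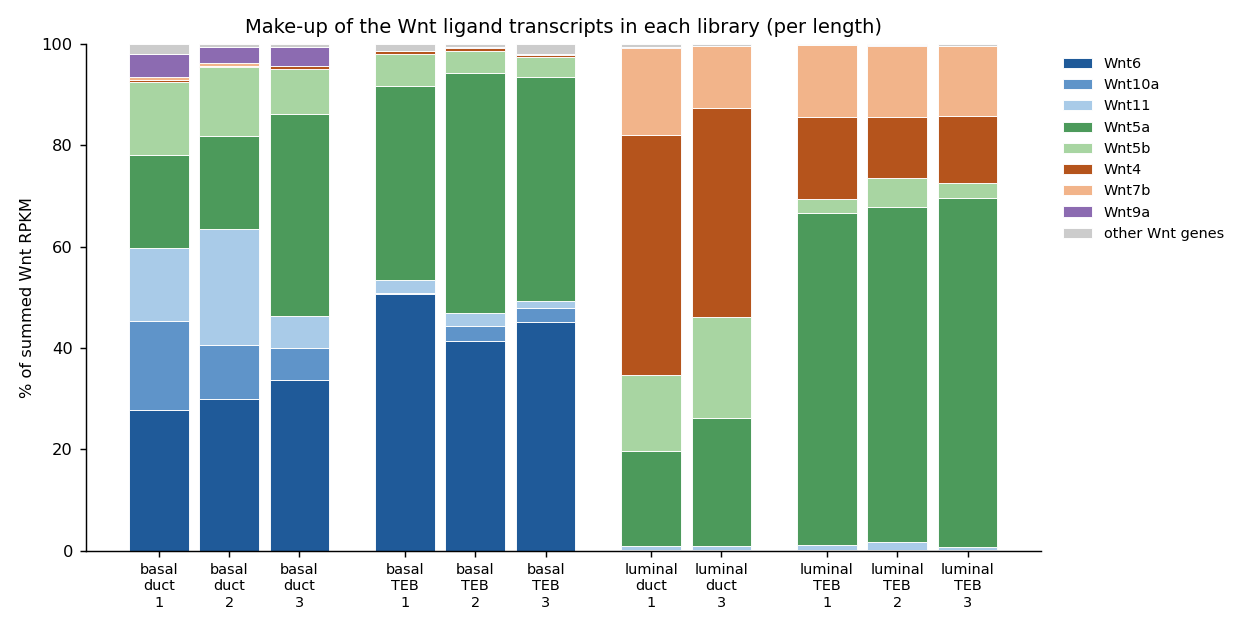
Share of each ligand in the summed RPKM of 19 Wnt genes, in percent, for each library. Wnt6 and Wnt5a fill most of each basal TEB bar, Wnt5a fills 65.6% or more of each luminal TEB bar, and Wnt4 is the largest part of both luminal duct bars.

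On the same RPKM scale, the levels could be ordered within each group. In basal duct Wls (70.7 ± 3.35 RPKM) was above all ligands, and Wnt6, Wnt5a and Porcn followed with neighbouring ranges that overlapped. In basal TEB the ranges of Wls (61.4 ± 6.97 RPKM), Wnt6 (52.1 ± 6.73 RPKM), Wnt5a (49.2 ± 4.24 RPKM) and Porcn overlapped from neighbour to neighbour, and Wnt5b (5.55 ± 1.54 RPKM) was separate below them. In luminal duct Wls (39.4 ± 0.810 RPKM) and Wnt4 (35.5 ± 4.44 RPKM) were followed by Wnt5a, Porcn, Wnt5b and Wnt7b, whose neighbouring ranges overlapped. Only in luminal TEB was a ligand above Wls by group mean and in every library: Wnt5a stood at 96.4 ± 9.79 RPKM. There Wnt7b (20.2 ± 1.09 RPKM) and Wnt4 (19.8 ± 2.88 RPKM) came after Wls with overlapping ranges. In the single library basal TEB 1, Wnt6 (59.6 RPKM) was also above Wls (54.9 RPKM). Wnt10a in luminal cells and Wnt7b and Wnt4 in basal cells were the lowest of their groups.

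The other 12 Wnt genes added little to the summed RPKM, with Wnt9a the largest at 3.78% in basal duct. Only Wnt2b, Wnt8a, Wnt9a and Wnt10b passed the filter, and 0 of these 4 were called by edgeR in any comparison. Over all genes the share called ran from 0.443% to 25.1% between comparisons. At an unadjusted p below 0.05 there were 2 between basal TEBs and ducts (Wnt9a and Wnt10b), against 14.5% of all genes. Between luminal TEBs and ducts there were 0, against 16.6%. Between cell types there were 2 in each structure, against 35.1% of all genes in ducts and 36.2% in TEBs. Wnt9a stood at 13.1, 6.55 and 11.9 CPM in basal duct and at 0, 0.484 and 0.728 CPM in basal TEB, with no overlap and an FDR of 0.273. Wnt10b, known for its role in early mammary development, had 0 counts in basal duct and 60, 4 and 75 counts in basal TEB (FDR = 0.2). Wnt3 had no count in any library, and Wnt1, Wnt2, Wnt3a, Wnt7a, Wnt8b, Wnt9b and Wnt16 had at most 17 counts in any library.

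Calls of the genes that serve the carrier and the ligand are given beside the shares of all genes. The 8 genes that traffic Wls and Wnt were Vps35, Vps26a, Vps26b, Vps29, Snx3, Tmed2, Tmed5 and Tmed10. Between TEBs and ducts edgeR called 0 of them in either cell type, where 1.32% of all genes were called in basal and 1.41% in luminal cells. An unadjusted p below 0.05 was found for 0 in basal and 2 in luminal cells, where 14.5% and 16.6% of all genes had one. Between cell types 1 of 8 was called in ducts and 2 in TEBs, all lower in basal cells, where 22.3% and 25.1% of all genes were called. Vps26a, a subunit of the retromer that returns Wls from endosomes, was lower in basal cells of ducts (log2 difference -0.99, SE 0.28, FDR = 0.0232) and of TEBs (-0.94, SE 0.25, FDR = 0.0169) by edgeR's quasi-likelihood test. Its partner Vps35 was lower in basal TEBs (-0.86, SE 0.24, FDR = 0.0198). The call of Vps26a in ducts was lost with library totals alone (FDR = 0.207) and without basal duct 1 or 2 or either luminal duct library (FDR 0.0574 to 0.071), and its call in TEBs without luminal TEB 1 or 2 (FDR = 0.068 and 0.0511). That of Vps35 was lost without basal TEB 1 or 3 or any luminal TEB library (FDR 0.0576 to 0.075). Scd1 and Scd2, desaturases that make palmitoleate, were called in no comparison, and only Scd1 had an unadjusted p below 0.05, between basal TEBs and ducts and for the difference of changes. Of the extracellular inhibitors, Notum did not pass the filter, and Trabd2b was higher in basal than in luminal TEBs (log2 difference 2.09, SE 0.69, FDR = 0.0455), a call lost with library totals alone and without any basal duct library, basal TEB 2 or 3, or luminal TEB 2 or 3 (FDR 0.0623 to 0.174).

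Several receptors for these ligands were higher in basal cells. Of 6 genes of the Wnt5a and Wnt11 receptors and planar polarity (Ror1, Ror2, Ryk, Ptk7, Vangl1 and Vangl2), Ror1, Ptk7 and Vangl1 were higher in basal cells of both structures by edgeR, and none was lower. That is 3 of 6 in each structure, where 22.3% of all genes were called in ducts and 25.1% in TEBs. The median log2 difference over the list was 1.38 in ducts and 0.95 in TEBs, against 0.08 and 0.04 over all genes. Ptk7 showed log2 differences of 2.03 (SE 0.27, FDR = 0.000179) in ducts and 1.35 (SE 0.22, FDR = 0.00079) in TEBs, and Ror1 of 2.55 (SE 0.78, FDR = 0.0352) and 3.17 (SE 0.68, FDR = 0.0047). With library totals alone the calls of Ptk7 and Vangl1 in TEBs were lost (FDR = 0.0571 and 0.198). The call of Ror1 in ducts was lost without basal duct 1 or 3, basal TEB 3, luminal duct 1, or luminal TEB 1 or 3 (FDR 0.051 to 0.0985), and the difference was 1.72 without luminal duct 1 and 4.61 without luminal duct 3. Between TEBs and ducts only Vangl1 in luminal cells passed, at 17.1, 21.6 and 24.8 CPM in TEB against 8.10 and 7.32 CPM in duct libraries (log2 change 1.45, SE 0.30, FDR = 0.039), and this call was lost in 11 of 20 alternatives, including library totals alone (FDR = 0.126), limma voom (FDR = 0.179), and leaving out basal duct 1 or 3, basal TEB 3, luminal duct 3 or any luminal TEB library (FDR 0.0518 to 0.169). Of the 6 polarity genes, 1 was thus called in luminal and 0 in basal cells, where 1.41% and 1.32% of all genes were. In luminal cells 5 had an unadjusted p below 0.05 by edgeR, against 16.6% of all genes. Of these, Ror1 was lower in TEBs, and Ror2, Ptk7, Vangl1 and Vangl2 were higher. In basal cells 2 had one (Ror2 and Vangl1), against 14.5%. The median log2 change was 0.94 in luminal and 0.03 in basal cells, against 0.04 and -0.03 over all genes. Reck, the co-receptor of Wnt7b, was higher in basal cells of ducts (3.25, SE 0.70, FDR = 0.00558) and of TEBs (1.93, SE 0.57, FDR = 0.0253), while Adgra2 was not called. The duct difference of Reck was 2.46 without luminal duct 3 and 5.22 without luminal duct 1, and passed in both. Its call in TEBs was lost with library totals alone (FDR = 0.109) and without basal TEB 2 or any luminal TEB library (FDR 0.0513 to 0.104).

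Feedback targets of beta-catenin were basal too. Of 7 genes, Sp5 had no count, and Axin2, Tcf7, Nkd1, Rnf43 and Znrf3 were higher in basal cells of both structures, with Lef1 not called. That is 5 of 6 tested in each structure, against 22.3% of all genes in ducts and 25.1% in TEBs. The calls of Rnf43 were lost without luminal duct 1 in ducts (FDR = 0.0958), and in TEBs without luminal TEB 1 (FDR = 0.0585) and with library totals alone (FDR = 0.227). The median log2 difference over the 6 genes tested was 2.56 in ducts and 2.74 in TEBs, against 0.08 and 0.04 over all genes. Among the 5 called, the difference was larger in TEBs than in ducts for Tcf7 (4.31 and 2.88). It was smaller in TEBs for the others, among them Axin2 (3.69 and 8.35). Axin2, the scaffold of the beta-catenin destruction complex, stood at 31.8, 25.8 and 23.9 CPM in basal duct and 24.8, 27.1 and 28.2 CPM in basal TEB. In luminal cells it had 1 and 4 counts in duct and 81, 138 and 91 counts in TEB libraries, or 1.82, 2.63 and 1.75 CPM in the latter. Axin2 thus rose from duct to TEB in luminal cells, with a log2 change of 4.63 (SE 0.65, FDR = 0.0095) by edgeR's quasi-likelihood test that rests on 5 counts in ducts. Both luminal duct libraries were near the limit of 3 counts, and the change was 3.63 without luminal duct 1 and 6.33 without luminal duct 3. It did not pass with limma voom (FDR = 0.0774). The luminal TEB level remained below that of basal TEB cells, with a log2 difference of 3.69 (SE 0.45, FDR = 7.15e-05). Of the 6 genes tested, only Axin2 was called between luminal TEBs and ducts and 0 between basal ones. Over all genes 1.41% and 1.32% were called. In each cell type 2 had an unadjusted p below 0.05 by edgeR, against 16.6% and 14.5% of all genes. The median log2 change over the 6 was 0.40 in luminal and -0.07 in basal cells, against 0.04 and -0.03 over all genes.

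**Figure D4:**
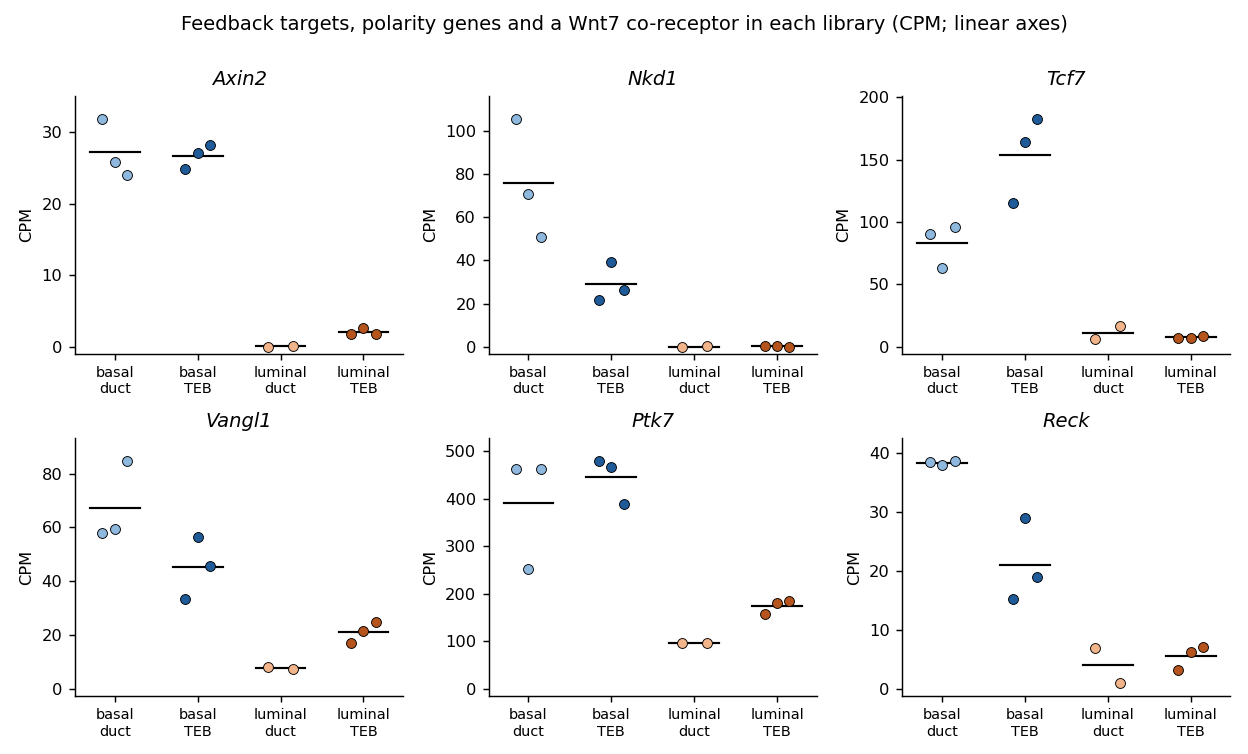
Levels of 6 genes of the Wnt pathway in each library, in CPM on linear axes, by group. Points are libraries and bars are group means. All basal libraries are above all luminal ones in each panel, and Axin2 is between 1.75 and 2.63 CPM in luminal TEB against at most 0.164 CPM in luminal duct.

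For each gene, the pair of genes with the closest pattern over the 11 libraries was sought among 10370 genes, by the root-mean-square difference of log2 CPM centred per gene. For Porcn these were Rps6ka2 (0.42) and Shc2 (0.47), for Wls Tysnd1 (0.11) and Slc25a37 (0.11), and for Wnt5a Nek2 (0.46) and Birc5 (0.47). For Wnt4 they were Clip4 (0.65) and Rbm20 (0.69), for Wnt7b Mal2 (0.60) and Unc13b (0.64), and for Wnt5b Dtx3 (0.29) and Shfl (0.37). For the basal ligands they were Fbln1 (0.55) and Begain (0.63) for Wnt6, Pmp22 (1.14) and Gas1 (1.18) for Wnt10a, and Rbm38 (0.45) and Efna2 (0.52) for Wnt11. A difference of 0 would be an identical pattern. The difference was largest for Wnt10a, but its size depends on how widely a gene itself varies. The root-mean-square spread of the centred values was 3.78 for Wnt10a and 0.67 for Wnt5b. The likeness is therefore not ranked between genes.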

How the data were processed

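RNA-seq counts per Entrez gene of 11 libraries were deposited by the authors as whole numbers, not normalized, in 1 table of the series and in 1 table per library with the same values, and 0 columns were left unused. Per the methods, 80 bp paired-end reads were aligned to mm10 and counted with Rsubread and its inbuilt annotation, and the submitters' processing notes name featureCounts. The version is not given in the sources used here. Symbols came from a RefSeq table of GRCm38.p6 (25275 of 27179 genes), and genes without one held 2.37% to 12.3% of counts.

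Low counts were removed by filterByExpr (with 10 as minimum count and 15 as minimum total), library sizes were scaled by TMM, and the data were fitted as 4 groups in 1 model with edgeR 4.0.16 in R 4.3.3 (quasi-likelihood test, Benjamini-Hochberg over all 17370 genes, FDR 0.05). The methods name estimateDisp and glmFit, whose likelihood ratio test was an alternative. The SE is the absolute log2 fold change over the square root of F, the common biological coefficient of variation was 0.704, and RPKM used the exonic lengths of the deposited count table. Counts of 0 were given a limit of 3 counts per library. Replicates are pools of at least 2 mice, so that p-values measure the spread between pools.

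The genes and lists were chosen with earlier results of these data known. Genes named are the 9 genes, every gene of the lists called in a comparison or not detected, and for each of the 9 the pair of genes of nearest pattern (log2 CPM, prior count 2, mean log2 CPM of at least 2, predicted genes passed over). Alternatives were DESeq2 size factors, library totals alone, no filter, DESeq2 1.42.0, limma 3.58.1 (voom), the replicate number as a block, removal of mitochondrial genes, each library left out in turn, and basal TEB 1 with luminal duct 3 left out. Scripts were tested on simulated counts. Ordering levels by coding length was not run, since no table with it was used here.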

Additional observations from a re-analysis of the deposited data

Results flagged for a closer look

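For 3 genes the change from duct to TEB is set between basal and luminal cells. Only Axin2 passed the test of that difference, and Vangl1 and Wnt11 are given because every library of the 2 cell types moved in opposite directions, as in 3.60% of all genes. For Axin2 the basal change minus the luminal change was -4.66 on the log2 scale (SE 0.75, FDR = 0.0253 by edgeR's quasi-likelihood test), with overlapping basal groups and a higher level in 3 of 3 luminal TEB libraries. The call was lost in 8 of 20 alternatives, namely library totals alone (FDR = 0.0531), limma voom (FDR = 0.135), the replicate block (FDR = 0.0628), and leaving out basal duct 1, basal TEB 3 or any luminal TEB library (FDR 0.0627 to 0.0848), and in luminal ducts the gene had 1 and 4 counts. The difference was -6.35 without luminal duct 3 and -3.65 without luminal duct 1. For Vangl1 the difference was -2.03 (SE 0.39, FDR = 0.0509), with all basal TEB libraries below and all luminal TEB libraries above those of ducts. For Wnt11 it was -3.25 (SE 0.77, FDR = 0.1), again with opposite directions in every library. Neither of these last differences passed the test. Of all genes tested, 0.443% were called for this difference.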

How the results depend on the processing

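Over 20 alternatives, 38 results for single genes of Wnt production gave 760 values, of which 715 kept their direction and their side of the threshold, 9 were no longer called, 21 became called and 15 changed sign. Genes called for TEB against duct in basal cells were 230, and 57 with library totals alone, 707 with the likelihood ratio test, 874 with DESeq2, 601 with limma voom and 59 to 399 with a library left out. In luminal cells they were 245, and 10, 1006 and 1277 with library totals, the likelihood ratio test and DESeq2, 372 without both basal TEB 1 and luminal duct 3, and 37 (without luminal TEB 3) to 1305 (without luminal duct 1). For the difference of changes they were 77, and 15 with totals, 141 with no filter, 629 with the likelihood ratio test, 712 with DESeq2, 198 without both libraries, and 7 (without basal duct 1) to 753 (without luminal duct 1). Genes of Wnt production called, Porcn aside, were 0 in basal cells, and 2, 2 and 3 with the likelihood ratio test, DESeq2 and voom, and 0 to 1 with a library left out. In luminal cells 1 was called, and 0 with totals or without both libraries, 2, 2 and 2 with the likelihood ratio test, DESeq2 and voom, and 0 to 1 with a library left out. For the difference of changes 0 were called, and 1 and 1 with the likelihood ratio test and DESeq2. Signs turned for Wls in TEBs between cell types (-0.10 with totals), for Wnt5b there (-0.47 with totals, -0.072 with voom, -0.24 without both libraries, and -0.24 to 0.39 with a library left out), for Wnt5a in ducts between cell types (-0.41 to 0.80 with a library left out), and for the differences of changes of Wnt5b (-0.11 with totals, -0.21 without both libraries) and Wnt6 (0.14 without both libraries, and -1.03 to 0.26 with a library left out). The cause was not tested.

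The labels do not say whether a shared replicate number marks a shared pool, and the main model did not use it. Correlations of deviations from group means ran from -0.068 to 0.163 over 15 pairs with the same number, 4 of them above 0.1. They ran from -0.163 to 0.137 over 30 other pairs, 2 of them above 0.1. The 2 luminal duct libraries deviate from their mean by equal and opposite amounts. Each correlation with luminal duct 3 is therefore that with luminal duct 1 with its sign turned, and does not count separately. Both other pairs above 0.1 (luminal duct 3 with basal duct 2 and with luminal TEB 2) and the value of -0.163 are of this kind. Between basal duct and basal TEB, same-number pairs (0.114, 0.115 and 0.060) all lay above the others (at most 0.035). In no other pair of groups did all same-number pairs lie above the others. Pairing by number was thus not settled. With the replicate block, 204 genes were called in basal and 125 in luminal cells, 3293 and 4030 between cell types in ducts and TEBs, and 46 for the difference of changes, while Wnt5a in TEBs between cell types became called (FDR = 0.0464) and Vangl1 in luminal cells between TEBs and ducts was no longer called (FDR = 0.0699). Library totals alone moved the median log2 change of all genes to -0.16 in basal and 0.42 in luminal cells, and to -0.63 for the difference of changes. The share of calls higher in TEBs was 12.6% in basal cells, and 1.75% with totals, 29.8% with the likelihood ratio test, 25.9% with DESeq2 and 31.1% with voom. In luminal cells it was 45.3%, and 30.4% with the block. Where 1 of the luminal duct libraries is left out, the other is assumed to vary like the other groups. Depth limits Wnt6 and Wnt10a in luminal and Wnt7b in basal cells. Ordering by coding length was not run.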
